A study of Mus musculus with 19 samples.

Results

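The genes described here give mature B cells their identity and carry the signal of the B cell antigen receptor. The set was named as 43 gene symbols. A gene was measured where the array held a probe set annotated to that symbol alone, and, of several such probe sets, the brightest on average was used. By this rule 42 of the 43 symbols were measured, among 22180 genes in all. Cd38 was not analysed here. Cd24a was the 1 measured gene with several such probe sets.

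Each array measured total RNA of a whole spleen from 1 mouse, and the values are log2 expression after RMA, the robust multi-array average. The 3 wild-type mice were the controls. The other mice carried human HGAL, an adaptor protein of antigen receptor signalling in germinal centre B cells, as an allele at Rosa26 (Rosa26-HGAL), together with a Cre recombinase. There were 4 tumour-bearing spleens of Rosa26-HGAL with Aid-Cre, 5 with Mb1-Cre and 4 with Sca1-Cre. Another 3 Sca1-Cre spleens were taken before tumours arose and are called pre-tumour. As background, Aid is switched on in activated B cells, Mb1 is another name for Cd79a and marks the B lineage from early on, and Sca1 marks blood stem and progenitor cells. All animals lived in a conventional facility with exposure to common pathogens. The labels used here give no strain or age. No group carried Cre without HGAL, or HGAL without Cre, so either allele alone cannot be told apart from the pair. The spleens were not sorted, and the labels do not give the share of tumour cells.

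In a B cell, antigen binding to surface immunoglobulin is passed inward by the paired chains Cd79a and Cd79b. Kinases such as Blk and Btk and the adaptor Blnk then assemble a complex that activates the phospholipase Plcg2, and the branch of Prkcb, Malt1 and Bcl10 leads on to NF-kB. Coreceptors and phosphatases such as Cd22, Siglecg, Fcgr2b, Ptpn6 and Inpp5d restrain the signal. Ebf1 and Pax5 commit cells to the lineage, and Pou2f2, Pou2af1, Spib and Bach2 act in mature B cells.

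Of the measured genes, 33 had an entry among the RefSeq promoters (build GRCm38.p6), and Ms4a1, Cd79b, Cd83, Blk, Malt1, Cd86, S1pr1, Cd24a and Ly6d had none. The 250 bases before each start were searched on both strands for the motifs named below, which do not cover every factor in this set. The octamer ATGCAAAT, read by Pou2f2 with Pou2af1, occurred in 2 of 33 windows (6.06%), against 1.81% of 27025 genes. The Ebf1 palindrome occurred in 1 window (3.03%, against 0.914%). The purine box GAGGAAGT, of the Ets family to which Spib belongs, occurred in the 4 windows of Cd37, Vav1, Inpp5d and Fcrl1 (12.1%, against 2.79%). The E-box CAGCTG occurred in the 3 windows of Cd81, Prkcb and Fcer2a (9.09%, against 14.7%). A match describes the letters and does not show binding. A window without a match can still hold a site spelled in other letters, since only these motifs were searched. Windows are printed on the gene's strand for 3 members whose values are described below. Cd79a is the gene behind the Mb1 name and held none of these motifs. Blnk held the octamer, on the opposite strand from 130 to 123 bases before the start, and Cd22 held the Ebf1 motif from 49 to 40 bases before it. Their positions are chr7:24897247-24897496 (plus strand) for Cd79a, chr19:40994222-40994471 (minus strand) for Blnk and chr7:30879029-30879278 (minus strand) for Cd22. Capitals mark the motif.
Cd79a: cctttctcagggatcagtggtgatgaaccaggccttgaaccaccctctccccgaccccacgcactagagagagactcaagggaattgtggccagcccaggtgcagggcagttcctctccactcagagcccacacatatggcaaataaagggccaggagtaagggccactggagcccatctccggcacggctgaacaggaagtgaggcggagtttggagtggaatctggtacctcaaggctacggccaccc
Blnk: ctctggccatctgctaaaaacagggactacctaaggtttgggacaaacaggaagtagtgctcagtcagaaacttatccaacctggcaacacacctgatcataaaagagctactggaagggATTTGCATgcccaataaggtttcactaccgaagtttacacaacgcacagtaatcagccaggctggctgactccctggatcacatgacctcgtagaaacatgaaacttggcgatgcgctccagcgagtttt
Cd22: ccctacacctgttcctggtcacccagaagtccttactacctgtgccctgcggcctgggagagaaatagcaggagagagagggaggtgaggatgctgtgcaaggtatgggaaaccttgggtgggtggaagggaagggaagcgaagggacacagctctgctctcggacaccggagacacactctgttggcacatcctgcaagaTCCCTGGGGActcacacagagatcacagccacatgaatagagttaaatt

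As a check of detection, all 42 members lay above the range of the arrays' 40th percentiles (4.72 to 4.90) in every group, by group mean. So did the 14 neutrophil, 8 erythroid and 11 T cell genes described below, so this bar does not test the tissue. Group differences are on the log2 scale, so that 1 is a doubling, with ± the fitted standard error (SE), and group levels carry a standard deviation (SD). A gene was called where the p-value adjusted over all 22180 genes was under 0.05, two-sided. The limma fit pooled the spread between mice over all 5 groups, and its SEs and p-values rest on that pooled spread. The members' median SD was 1.24 among Aid-Cre, 0.51 among Mb1-Cre and 0.66 among Sca1-Cre tumours. It was 0.22 among wild-type and 0.19 among pre-tumour arrays. Comparisons without Aid-Cre tumours thus also carry the Aid-Cre spread, except where only the compared groups were fitted. In whole spleen, fewer B cells and less RNA per B cell cannot be told apart. The comparisons with wild type share the same 3 wild-type arrays.

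The main pattern was a lower level of B cell genes in some tumour spleens and not in others, without a single called gene. The median of the 42 members, set against the wild-type mean, stood at -0.82, -2.30, 0.24 and 0.08 in Aid-Cre tumour replicates 1 to 4. It stood at -0.74, -0.31, -0.40, -1.52 and -0.68 in Mb1-Cre replicates 1 to 5, and at 0.09, -0.05, -1.35 and -0.38 in Sca1-Cre tumour replicates 1 to 4. All 5 Mb1-Cre arrays were thus negative, while the other lines each held arrays near wild type. Pre-tumour arrays stood at 0.01, 0.23 and 0.08, and wild-type arrays at 0.02, 0.17 and -0.16. The extreme was Aid-Cre tumour replicate 2, in which 31 of the 42 members (73.8%) had their lowest value of all 19 arrays, against 10.5% of all genes. In that spleen 29 members stood more than 1 below the wild-type mean, as did 3.93% of all genes, and 22 members stood more than 2 below it. In Mb1-Cre replicate 4 more members, 31, stood more than 1 below it (3.04% of all genes), but 8 stood more than 2 below.

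**Figure D1:**
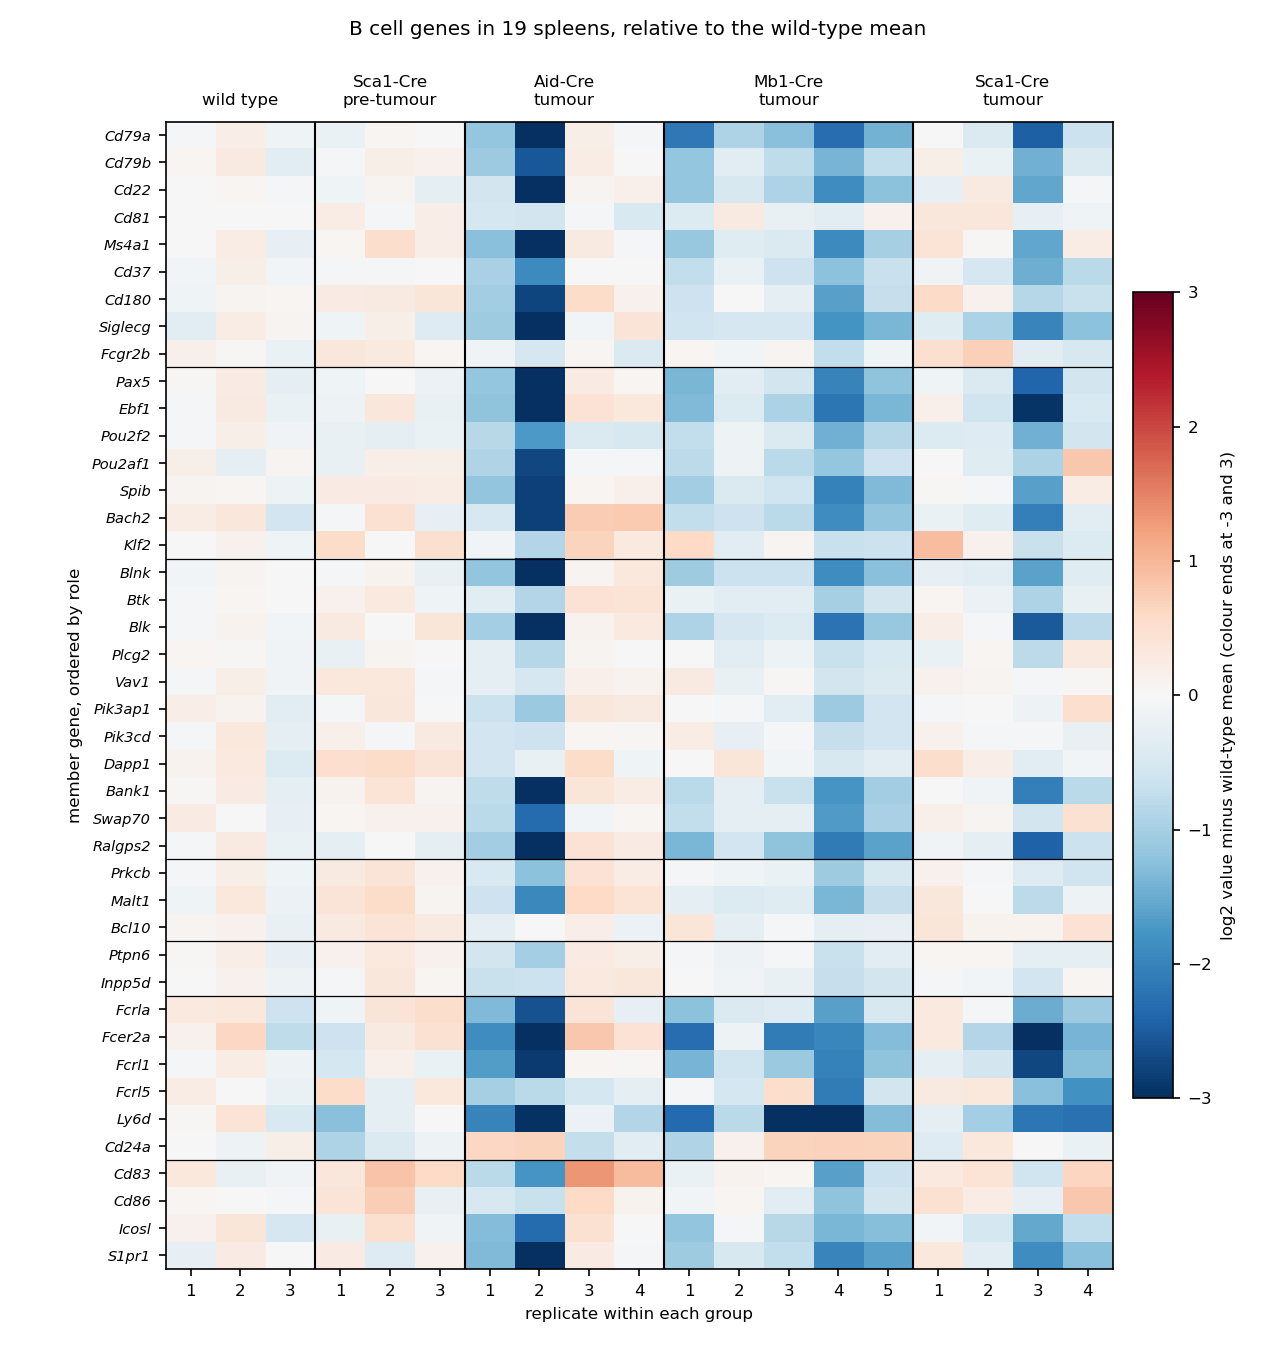
The log2 value of each of 42 members (rows, grouped by role) minus its wild-type mean, in 19 spleens (columns, by group and replicate). Blue is below and red above the wild-type mean, and colour ends at -3 and 3. Aid-Cre tumour replicate 2, Mb1-Cre replicate 4 and Sca1-Cre tumour replicate 3 hold the darkest blue columns.

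The first question is what the tumours of the 3 lines shared against wild type. For all 13 tumour spleens, with the 3 lines weighted equally, limma called 0 of 42 members, and 0.018% of all genes. An unadjusted p under 0.05 was reached by 5 members, all lower (11.9%), against 5.03% of all genes on the lower side. The difference was negative for 40 of 42 members (48.5% of all genes), with a median of -0.66 against 0.00 over all genes, and it ran from -1.72 for Ly6d to 0.08 for Cd24a. In 1 member, Pou2f2, no tumour array reached the lowest wild-type array, which is 2.38% of the members against 0.469% of all genes.

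Both signal-passing chains of the receptor were high in wild type. Cd79a read 12.10, 12.38 and 12.03 in wild type, 11.02, 8.97, 12.34 and 12.11 in Aid-Cre tumours, 10.03, 11.25, 10.91, 9.89 and 10.76 in Mb1-Cre tumours, and 12.15, 11.75, 9.72 and 11.53 in Sca1-Cre tumours. All Mb1-Cre values lay below wild type, whereas Aid-Cre and Sca1-Cre tumours overlapped it. The difference over all tumours was -1.18 ± 0.55 (SE; limma adjusted p = 0.551). Cd79b read 11.76, 11.99 and 11.39 in wild type, 10.62, 9.17, 11.94 and 11.70 in Aid-Cre, 10.55, 11.36, 10.96, 10.31 and 10.97 in Mb1-Cre and 11.88, 11.52, 10.26 and 11.27 in Sca1-Cre tumours. All Mb1-Cre values again lay below wild type, and the difference was smaller than that of Cd79a, at -0.74 ± 0.42 over all tumours.

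Among the other receptor and coreceptor genes, Ms4a1, which encodes CD20, read 11.42, 11.63 and 11.16 in wild type. Pre-tumour spleens gave 11.46, 11.92 and 11.60. The tumours gave 10.15, 8.31, 11.67 and 11.38 in Aid-Cre, 10.26, 11.04, 10.98, 9.50 and 10.40 in Mb1-Cre and 11.80, 11.43, 9.85 and 11.64 in Sca1-Cre tumours. The Mb1-Cre arrays were again all below wild type, and Sca1-Cre tumours other than replicate 3 lay at or above its lowest array. Cd37, a B cell tetraspanin, stood at -0.71 ± 0.32 over all tumours (limma adjusted p = 0.544). The inhibitory lectin Siglecg stood at -1.01 ± 0.50 (limma adjusted p = 0.577). Cd22, the sialic acid-binding inhibitor whose promoter is printed above, stood at -0.85 ± 0.58 and the Toll-like receptor homologue Cd180 at -0.55 ± 0.49. The tetraspanin Cd81 and the inhibitory Fc receptor Fcgr2b were nearest to 0, at -0.14 ± 0.15 and -0.11 ± 0.22. All 9 genes of this role were negative, with a median of -0.74.

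The lineage factors Pax5 and Ebf1 were, like the receptor chains, below wild type on all Mb1-Cre arrays. Pax5 read 9.67, 9.90 and 9.36 in wild type, 8.48, 5.91, 9.89 and 9.70 in Aid-Cre, 8.29, 9.29, 9.10, 7.64 and 8.43 in Mb1-Cre and 9.51, 9.22, 7.26 and 9.09 in Sca1-Cre tumours. Ebf1 read 10.27, 10.57 and 10.10 in wild type, 9.11, 6.92, 10.76 and 10.64 in Aid-Cre, 8.98, 9.90, 9.37, 8.14 and 8.94 in Mb1-Cre and 10.48, 9.73, 7.36 and 9.85 in Sca1-Cre tumours. For both genes Aid-Cre replicates 3 and 4 lay within or above it. Over all tumours Pax5 stood at -1.04 ± 0.62 and Ebf1 at -1.06 ± 0.66, neither called.

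Pou2f2, the octamer factor Oct-2, was the 1 member for which all 13 tumour arrays lay below wild type. The wild-type arrays read 8.44, 8.68 and 8.41 and the pre-tumour arrays 8.29, 8.21 and 8.30. The tumours read 7.67, 6.79, 8.08 and 8.04 in Aid-Cre, 7.78, 8.36, 8.07, 7.08 and 7.65 in Mb1-Cre and 8.11, 8.13, 7.07 and 7.95 in Sca1-Cre tumours. The highest of the 16 Rosa26-HGAL arrays, Mb1-Cre replicate 2, lay just below the lowest wild-type array. The differences were -0.76 ± 0.27 for all tumours (limma adjusted p = 0.437), -0.87 ± 0.32 for Aid-Cre, -0.72 ± 0.31 for Mb1-Cre, -0.69 ± 0.32 for Sca1-Cre tumours and -0.24 ± 0.34 for pre-tumour spleens. Its coactivator Pou2af1 stood at -0.59 ± 0.43, with Sca1-Cre tumour replicate 4 at 10.94, above all other arrays. Spib stood at -0.80 ± 0.49 and Bach2, a repressor of plasma cell fate, at -0.73 ± 0.56. Klf2, a factor of lymphocyte quiescence and trafficking, stood at -0.07 ± 0.32. All 7 factors were negative, with a median of -0.76.

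**Figure D2:**
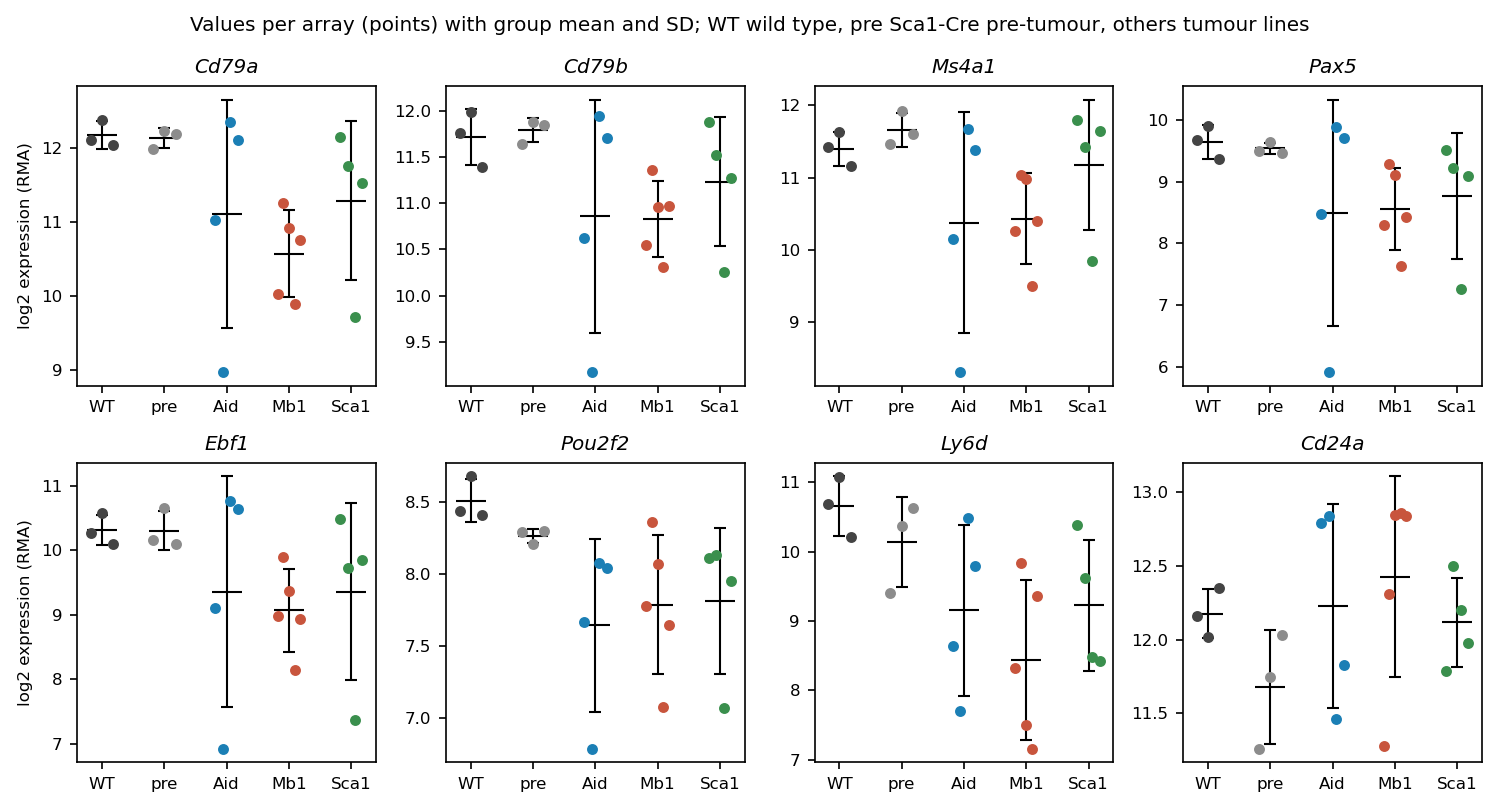
Log2 expression of 8 members in each spleen (points), by group, with the group mean (long bar) and SD (whiskers). WT is wild type with 3 arrays, pre is Sca1-Cre pre-tumour with 3, and Aid, Mb1 and Sca1 are tumours with 4, 5 and 4. For Cd79a, Pax5 and Ebf1 the 5 Mb1 points lie below the 3 WT points, while Aid spans both; Cd24a has its highest points in Aid and Mb1.

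The signalling genes next to the receptor split by size of difference. Blnk, the adaptor that links Syk to Btk and Plcg2, read 10.28, 10.45 and 10.37 in wild type and 9.31, 9.72, 9.72, 8.51 and 9.12 in Mb1-Cre tumours. These groups lay apart, and over all tumours Blnk stood at -0.90 ± 0.48 (limma adjusted p = 0.61). The Src-family kinase Blk stood at -0.96 ± 0.64, the scaffold Bank1 at -0.86 ± 0.59, the Ral exchange factor Ralgps2 at -1.07 ± 0.61 and the Rac-binding Swap70 at -0.52 ± 0.37. Differences were smaller for the kinase Btk (-0.29 ± 0.24), Plcg2 (-0.24 ± 0.20), the PI3-kinase adaptor Pik3ap1 (-0.21 ± 0.27) and its catalytic subunit Pik3cd (-0.20 ± 0.18). The exchange factor Vav1 stood at -0.09 ± 0.16 and the adaptor Dapp1 at -0.04 ± 0.21. All 11 were negative, with a median of -0.29 and 0 at an unadjusted p under 0.05.

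In the NF-kB branch, the kinase Prkcb stood at -0.29 ± 0.27, the paracaspase Malt1 at -0.39 ± 0.38 and its partner Bcl10 at 0.03 ± 0.13. The phosphatases Ptpn6 (SHP-1) and Inpp5d (SHIP-1) each stood at -0.22, with SE of 0.20 and 0.21. These 5 genes, also transcribed in other blood cells, had smaller differences than Pax5 or Ebf1, but that contrast between roles was not tested.

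Surface markers held the widest differences. Ly6d, a marker of the B lineage, read 10.69, 11.07 and 10.21 on the wild-type arrays and 9.40, 10.37 and 10.63 on the pre-tumour arrays. Its tumour values were 8.64, 7.70, 10.49 and 9.79 in Aid-Cre, 8.32, 9.83, 7.50, 7.16 and 9.36 in Mb1-Cre and 10.38, 9.62, 8.48 and 8.42 in Sca1-Cre tumours. Of the 13 tumour arrays, Aid-Cre replicate 3 and Sca1-Cre replicate 1 lay within the wild-type range and the rest below it. The difference over all tumours was -1.72 ± 0.59 (limma unadjusted p = 0.00981, adjusted p = 0.421). Fcrl1, an Fc receptor-like coreceptor of B cells, stood at -1.20 ± 0.53 (limma adjusted p = 0.532), Fcrl5 at -0.61 ± 0.45 and Fcrla at -0.79 ± 0.49. Fcer2a, which encodes the low-affinity IgE receptor CD23 of follicular B cells, stood at -1.38 ± 0.86. It had the widest spread of any member in Aid-Cre tumours, with 8.59, 5.83, 11.27 and 10.89 against 10.59, 11.09 and 9.69 in wild type.

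Cd24a, a surface glycoprotein shared by immature B cells, red cell precursors and neutrophils, had the highest difference over all tumours, 0.08 ± 0.32 (limma adjusted p = 0.956), and was 1 of 2 members above 0, with Bcl10. It read 12.16, 12.02 and 12.35 on the wild-type arrays and 11.26, 11.75 and 12.03 on the pre-tumour arrays. Its tumour values were 12.79, 12.84, 11.46 and 11.83 in Aid-Cre, 11.28, 12.31, 12.85, 12.86 and 12.84 in Mb1-Cre and 11.79, 12.50, 12.20 and 11.98 in Sca1-Cre tumours. The 5 highest arrays were Aid-Cre replicates 1 and 2 and Mb1-Cre replicates 3, 4 and 5, where the mean of 8 erythroid genes stood 0.95 to 1.35 above the wild-type mean. At the 3 lowest, Mb1-Cre replicate 1, pre-tumour replicate 1 and Aid-Cre replicate 3, the erythroid mean stood at -2.73, -3.29 and -2.06. The part of red cell precursors in the Cd24a values was not tested. A second Cd24a probe set had means of 9.93 ± 0.30 in the 3 wild-type, 9.60 ± 0.72 in the 3 pre-tumour, 10.35 ± 1.05 in the 4 Aid-Cre, 10.27 ± 0.89 in the 5 Mb1-Cre and 10.17 ± 0.71 in the 4 Sca1-Cre tumour spleens (± SD). In Sca1-Cre tumours the probe sets differed in direction, since the first averaged 12.12 ± 0.31 against 12.18 ± 0.16 in wild type.

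Of the genes of activation and trafficking, Icosl, the ligand of the T cell costimulator ICOS, stood at -0.82 ± 0.44 over all tumours (limma adjusted p = 0.606) and the egress receptor S1pr1, which T cells also use, at -1.06 ± 0.60. The activation marker Cd83 stood at -0.11 ± 0.49 and the costimulator Cd86 at -0.07 ± 0.28. Cd83 read 8.02, 7.04, 10.14 and 9.78 in Aid-Cre tumours against 9.14, 8.59 and 8.72 in wild type, so that replicates of 1 line lay on both sides of wild type.

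**Figure D3:**
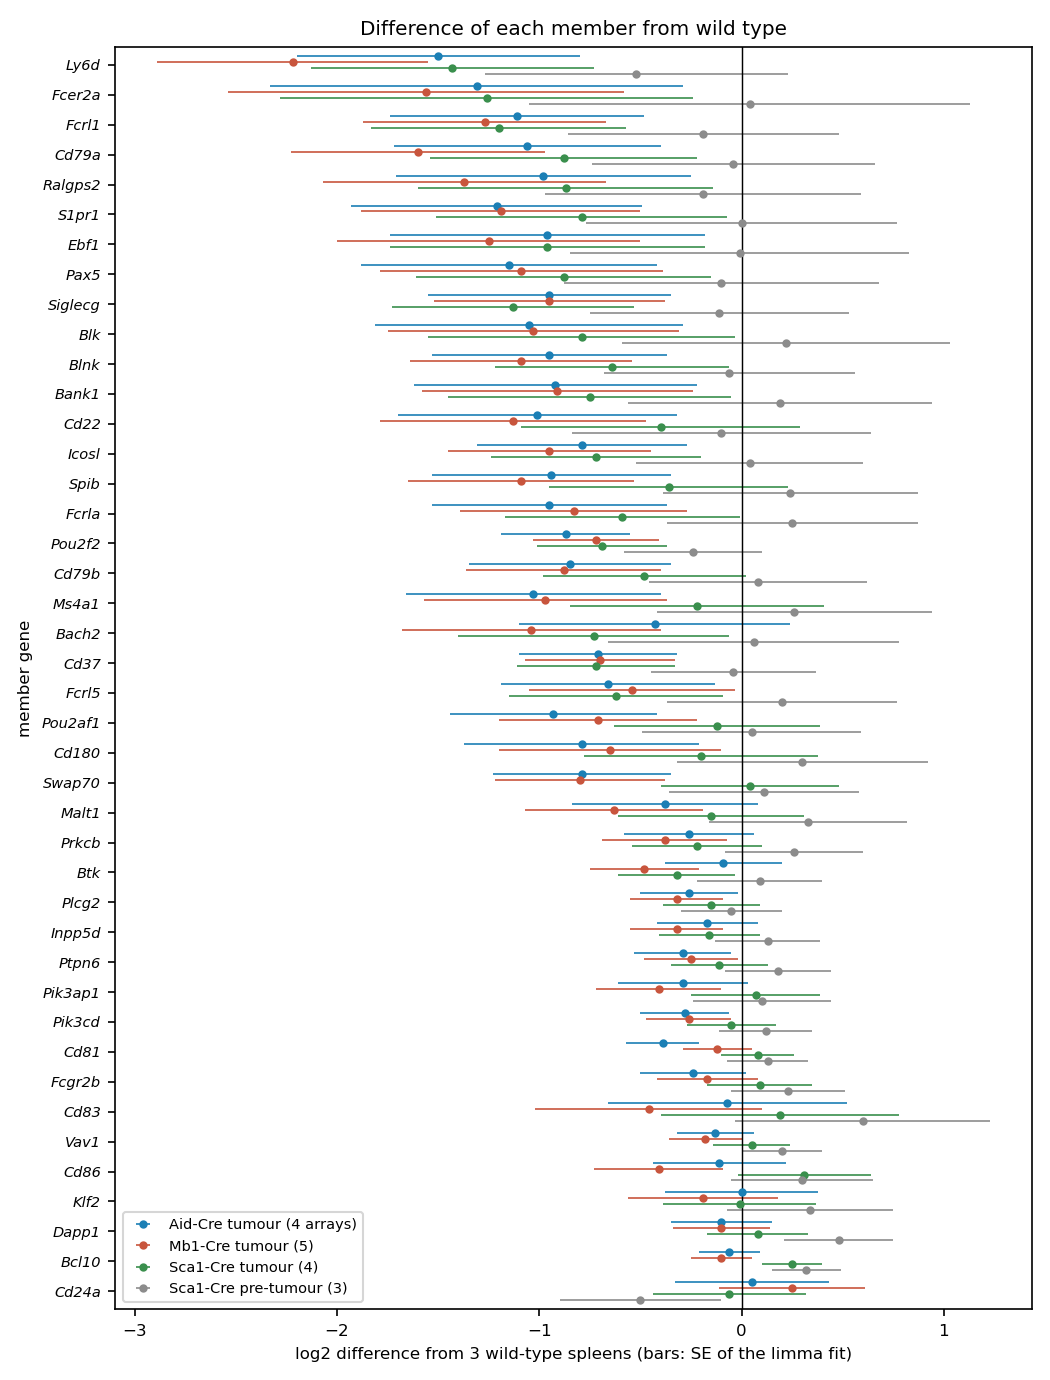
Log2 difference of each of 42 members from the 3 wild-type spleens, for 3 tumour lines and the Sca1-Cre pre-tumour group (points), with bars of 1 SE of the limma fit. Members are ordered by their difference over all tumours. Most tumour points lie left of 0, while the grey pre-tumour points lie on both sides.

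In Mb1-Cre tumours the members stood lower in all 5 spleens by their median. limma called 0 of 42 members, where it called 0% of all genes, and 4 members had an unadjusted p under 0.05, all lower (9.52%, against 6.2% of all genes). The difference was negative for 41 of 42 members (49.9% of all genes), with a median of -0.72. For 21 members (50%) all 5 Mb1-Cre arrays lay below all 3 wild-type arrays, against 5.38% of all genes. These were 6 of 9 receptor and coreceptor genes (Cd79a, Cd79b, Ms4a1, Cd22, Cd37 and Siglecg), 5 of 7 factors (Pax5, Ebf1, Pou2f2, Spib and Bach2) and 6 of 11 proximal signalling genes (Blnk, Btk, Blk, Bank1, Swap70 and Ralgps2). The others were Malt1, Ly6d, Fcrl1 and S1pr1. Ly6d stood at -2.22 ± 0.67 (limma adjusted p = 0.259), Cd79a at -1.60 ± 0.63 (limma adjusted p = 0.358) and Fcrl1 at -1.27 ± 0.60 (limma adjusted p = 0.441), whereas Cd24a stood at 0.25 ± 0.36. When the fit held only these 8 arrays, limma still called 0 members, where it called 61 of 22180 genes. The members' smallest limma adjusted p was 0.0745. In that fit 25 members had an unadjusted p under 0.05 (59.5%, against 8.3% of all genes on the lower side). The same kind of fit gave 3 members for all tumours (7.14%, against 4.5%), and 4 each for Aid-Cre and Sca1-Cre tumours (9.52%, against 3.29% and 5.22%). Neutrophil markers moved with this group: 14 of 14 were higher by a median of 2.23, and their mean level was 10.17 to 11.24 against 7.39 to 9.44 in wild type. Macrophage and red pulp markers were higher in 11 of 11, with mean levels of 7.47 to 8.99 against 7.05 to 7.99. T cell genes were lower in 11 of 11 by a median of -0.65, near that of the B cell members, and their mean level was 7.19 to 8.69 against 8.10 to 8.94. Mitosis genes were higher in 11 of 11 by a median of 0.56, with mean levels of 7.50 to 9.97 against 8.09 to 8.78. None of these genes was called. The part of these cells in the B cell values was not tested.

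Aid-Cre tumours fell into arrays near wild type and arrays far below it. limma called 0 members (0.018% of all genes), and 3 had an unadjusted p under 0.05, all lower (7.14%, against 4.35%). The median difference was -0.79, with 41 of 42 members negative (48.6% of all genes), but without replicate 2 it was -0.15 and without replicate 3 it was -1.02. Replicates 1 and 2 had 38 and 39 members below the lowest wild-type array, against 30.8% and 30.7% of all genes. Replicates 3 and 4 had 4 and 6, against 26.7% and 27.5%. The median SD over members was 1.24 in this group and 0.18 over all genes, and for 33 of 42 members the SD exceeded the 90th percentile of all genes (0.56). For 3 members all Aid-Cre arrays lay below wild type, Pou2f2, Cd81 and Fcrl5 (7.14%, against 3.45% of all genes). Cd81 read 11.16, 11.16 and 11.17 in wild type and 10.64, 10.61, 11.14 and 10.72 in Aid-Cre tumours, a difference of -0.39 ± 0.18 (limma adjusted p = 0.601). Ly6d stood at -1.50 ± 0.70 (limma adjusted p = 0.597). T cell genes were also lower in 11 of 11, by a median of -0.50, with 0 called and overlapping arrays (6.62 to 8.96 against 8.10 to 8.94).

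In Sca1-Cre tumours the members' median was -0.34, with 33 of 42 members negative (51.1% of all genes). limma called 0 members (0.0406% of all genes), and Pou2f2 alone had an unadjusted p under 0.05 (2.38%, against 5.25% of all genes on the lower side). Without replicate 3 the median was -0.10. In that spleen 36 members lay below the lowest wild-type array (29% of all genes), against 8 in replicate 1 (26.9%) and 15 in replicate 2 (26.7%). Replicate 4, with 26 such members (33.7%), also had germinal centre markers 3.32 above the wild-type mean. Members entirely below wild type were Pou2f2, Fcrl1, Siglecg, Cd37 and Blnk (11.9%, against 5.86% of all genes). Ly6d stood at -1.43 ± 0.70 (limma adjusted p = 0.461), Fcrl1 at -1.20 ± 0.63 and Siglecg at -1.13 ± 0.60. Of the 9 members with a positive difference, Cd86 stood at 0.31 ± 0.33, Bcl10 at 0.25 ± 0.15 and Cd83 at 0.19 ± 0.59. The other 6, Cd81, Fcgr2b, Vav1, Pik3ap1, Dapp1 and Swap70, stood between 0.04 and 0.09 and did not keep their sign when single arrays were left out. In this group germinal centre genes were higher in 7 of 7 by a median of 1.24, neutrophil genes in 14 of 14 by 0.70 and T cell genes in 10 of 11 by 0.50, with 0 called. The germinal centre difference came mostly from replicate 4, since the mean of these genes stood at 0.18, 0.25 and 0.40 in replicates 1 to 3.

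Before tumours arose, the Sca1-Cre spleens showed B cell genes near the wild-type level. limma called 0 of 42 members (0.00451% of all genes), and 0 had an unadjusted p under 0.05 (5.47% of all genes). With only the compared groups in the fit, 2 members were lower at that p (4.76%, against 6.06% of all genes on the lower side). The median difference was 0.10, and 13 of 42 members were negative (47.4% of all genes). This median ran from 0.00 to 0.21 with 1 array left out and was 0.31 with a covariate for sex, scored from expression. All 3 pre-tumour arrays lay above wild type for Bcl10, Dapp1, Cd83, Cd180 and Spib (11.9%, against 8.35% of all genes) and below it for Pou2f2 (2.38%, against 8.49%). Bcl10 read 8.54, 8.67 and 8.55 against 8.36, 8.41 and 8.05 in wild type, a difference of 0.32 ± 0.17 (limma adjusted p = 0.883). Dapp1 read 9.56, 9.62 and 9.43 against 9.16, 9.35 and 8.66, a difference of 0.48 ± 0.27 (limma adjusted p = 0.887). Cd24a stood at -0.50 ± 0.40, and Vav1 at 0.20 ± 0.20. The 8 erythroid genes had differences of -2.66 to -1.26. Mitosis genes were lower in 11 of 11 by a median of -1.52, and T cell genes were higher in 11 of 11 by a median of 0.67, 0 of them called. The mean mitosis level was 6.10 to 7.69 against 8.09 to 8.78, and the T cell level 8.98 to 9.18 against 8.10 to 8.94. Their part in the B cell values was not tested.

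Between Sca1-Cre tumour and pre-tumour spleens, limma called 0 members (0% of all genes), and 0 had an unadjusted p under 0.05 (5.34% of all genes). With only the compared groups in the fit, 4 members were lower at that p (9.52%, against 3.88% of all genes on the lower side). The difference was negative for 40 of 42 members (52.7% of all genes), with a median of -0.48, and -0.24 without tumour replicate 3. Tumour arrays lay entirely below pre-tumour arrays for Cd37, Pou2f2, Bank1, Ptpn6 and Blnk (11.9%, against 4.51% of all genes). Cd37 read 10.89, 10.93 and 10.95 in pre-tumour spleens and 10.85, 10.46, 9.51 and 10.16 in tumours, a difference of -0.68 ± 0.39 (limma adjusted p = 0.851). Siglecg stood at -1.02 ± 0.60, Fcrl1 at -1.01 ± 0.63 and Dapp1 at -0.40 ± 0.25. Without tumour replicate 3 Cd37 was -0.43, Siglecg -0.73, Fcrl1 -0.50 and Dapp1 -0.27. In the same comparison mitosis genes were higher in 11 of 11 by a median of 1.51, erythroid genes in 8 of 8 by 1.24, germinal centre genes in 7 of 7 by 1.07 and neutrophil genes in 14 of 14 by 0.92. None of these was called, and their part in the B cell values was not tested. Relative to the wild-type mean, the germinal centre mean was 0.18, 0.25, 0.40 and 3.32 in tumour replicates 1 to 4. On the pre-tumour arrays it was -0.11, 0.15 and 0.09.

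The lines were also compared with each other, gene by gene. The groups differ in their other cells as well as in the Cre driver, and the set as a whole was not tested between them. By limma's F-test over the 3 tumour groups 0 members were called (0.0496% of all genes), and Cd81 and Bcl10 had an unadjusted p under 0.05 (4.76%, against 16.3% of all genes). Aid-Cre and Mb1-Cre tumours gave 0 called members (0.0451% of all genes) and 0 at an unadjusted p under 0.05 (8.76%), with a median difference of 0.05 that became 0.56 without Aid-Cre replicate 2 and -0.20 without Aid-Cre replicate 3. Ly6d stood at 0.72 ± 0.62, Btk at 0.39 ± 0.25, Cd86 at 0.30 ± 0.29 and Cd81 at -0.27 ± 0.16 (Aid-Cre minus Mb1-Cre). With 1 array left out these ran from 0.27 to 1.20 for Ly6d, 0.22 to 0.66 for Btk, 0.07 to 0.49 for Cd86 and -0.39 to -0.18 for Cd81. Aid-Cre minus Sca1-Cre gave 0 called (0.0451% of all genes), 2 lower at an unadjusted p under 0.05 (4.76%, against 7.92%) and a median of -0.18, or 0.24 without Aid-Cre replicate 2 and -0.54 without replicate 3. Cd81 stood at -0.46 ± 0.17 in this comparison (limma adjusted p = 0.246), Bcl10 at -0.31 ± 0.14, Swap70 at -0.83 ± 0.41 and Pou2af1 at -0.81 ± 0.47. Without Aid-Cre replicate 2 Swap70 was -0.32 and Pou2af1 -0.21. Mb1-Cre minus Sca1-Cre gave 0 called (0.0406% of all genes), 3 lower at an unadjusted p under 0.05 (7.14%, against 10.4%) and a median of -0.25, which ran from -0.59 without Sca1-Cre replicate 3 to -0.11 without Mb1-Cre replicate 4. Bcl10 stood at -0.35 ± 0.14 (limma adjusted p = 0.202), Cd86 at -0.73 ± 0.29, Swap70 at -0.84 ± 0.39 and Pik3ap1 at -0.48 ± 0.28, of which Pik3ap1 was -0.31 without Mb1-Cre replicate 4.

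Other genes of the receptor pathway, taken as a list of 35 of which 29 were measured, were described in the same fits. Over all tumours limma called 0 of 29, with 20 lower, a median of -0.21, and 1 at an unadjusted p under 0.05, the GTPase Rac2 at -0.25 ± 0.10 (limma adjusted p = 0.486), where 5.03% of all genes were lower at that p. The complement receptor Cr2 stood at -1.71 ± 1.02 and the kinase Syk at -0.42 ± 0.34. In Mb1-Cre tumours 23 of 29 were lower, with a median of -0.27, the adaptor Lat2 at -0.80 ± 0.27 (limma adjusted p = 0.296) and the PI3-kinase subunit Pik3cb at 1.01 ± 0.44. A list of 9 other mature B cell surface genes was lower in 9 of 9 over all tumours, by a median of -0.70, with the follicle homing receptor Cxcr5 at -0.96 ± 0.48. Of 12 other B-lineage factors 11 were lower, by a median of -0.37. In Mb1-Cre tumours the myeloid and B cell factor Spi1 stood at 0.54 ± 0.21 (limma adjusted p = 0.344) with every array above wild type, while Ikzf3 stood at -0.94 ± 0.52 with every array below it. Of these 12 factors, 4 lay entirely below wild type there (5.38% of all genes) and 1 entirely above it (4.1% of all genes).

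Markers of other spleen cells differed between the same arrays. In the tumour arrays with the lowest B cell medians, Aid-Cre replicate 2, Mb1-Cre replicate 4 and Sca1-Cre replicate 3, the mean of the 14 neutrophil genes stood 2.47, 2.54 and 1.78 above the wild-type mean. It stood at -1.82 and -1.71 in Aid-Cre replicates 3 and 4 and at -0.38 in Sca1-Cre replicate 1, whose B cell medians were positive. Mb1-Cre replicate 2, with a B cell median of -0.31, had a neutrophil mean of 2.03, and Sca1-Cre replicate 2, at -0.05, had 1.66. The mean of 11 T cell genes was -1.83 in Aid-Cre replicate 2 and -1.10 in Mb1-Cre replicate 4 but 0.89 in Sca1-Cre replicate 3. Erythroid genes stood at 1.32, 1.35 and -0.03 in these 3 spleens. The part of these cells in the B cell values was not tested. Exocrine pancreas genes were highest in Mb1-Cre replicate 2 (2.79 above the wild-type mean) and wild type replicate 2 (0.86). Without both arrays the members' median was -0.78 in Mb1-Cre tumours.

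**Figure D4:**
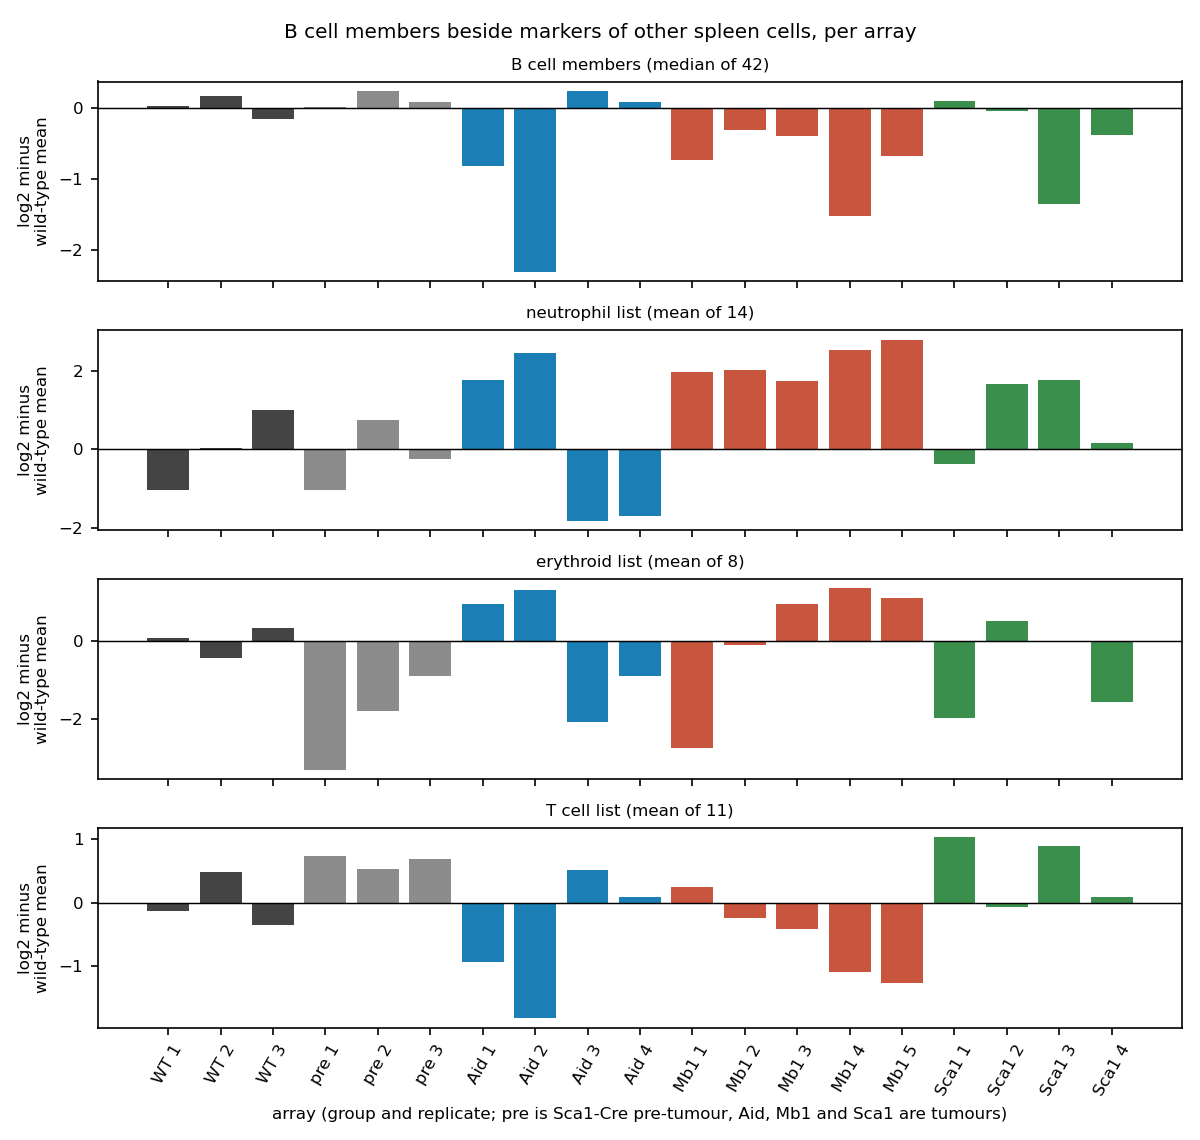
For each of 19 spleens (bars), the median of the 42 B cell members and the means of 14 neutrophil, 8 erythroid and 11 T cell genes, as log2 minus the wild-type mean. WT is wild type and pre is Sca1-Cre pre-tumour. The B cell median is lowest in Aid replicate 2, where the neutrophil mean is 2.47.

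Cd79a and Cd79b, whose proteins pair in the receptor, were also read against each other in every array. This pair was chosen after its values were seen, and the level of the difference between 2 probe sets has no meaning of its own. Exact two-sided permutation tests of 6 group comparisons passed 0.05 in 0 after adjustment over the 6. The smallest adjusted p was 0.0952, with Mb1-Cre at -0.26 ± 0.20 (SD, n = 5) against wild type at 0.46 ± 0.16 (SD, n = 3). There the unadjusted permutation p of 0.0179 was the smallest these group sizes allow. For pre-tumour against wild type the permutation p could not go below 0.1. With such floors, and with the pair chosen this way, the tests support nothing. Cd79a minus Cd79b was 0.35, 0.40 and 0.64 on the wild-type arrays, 0.34, 0.35 and 0.33 on the pre-tumour arrays and -0.52, -0.11, -0.05, -0.43 and -0.21 in Mb1-Cre tumours. It was 0.40, -0.20, 0.40 and 0.41 in Aid-Cre and 0.28, 0.23, -0.54 and 0.26 in Sca1-Cre tumours. All 5 Mb1-Cre arrays lay below all wild-type and pre-tumour arrays, and so did all Sca1-Cre tumour arrays. In the Aid-Cre and Sca1-Cre lines the lowest values came from Aid-Cre replicate 2 and Sca1-Cre replicate 3, the arrays of those lines with the lowest B cell medians. As background, Mb1-Cre is commonly a knock-in at the Cd79a gene, and the labels used here do not say how this one was built.

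**Figure D5:**
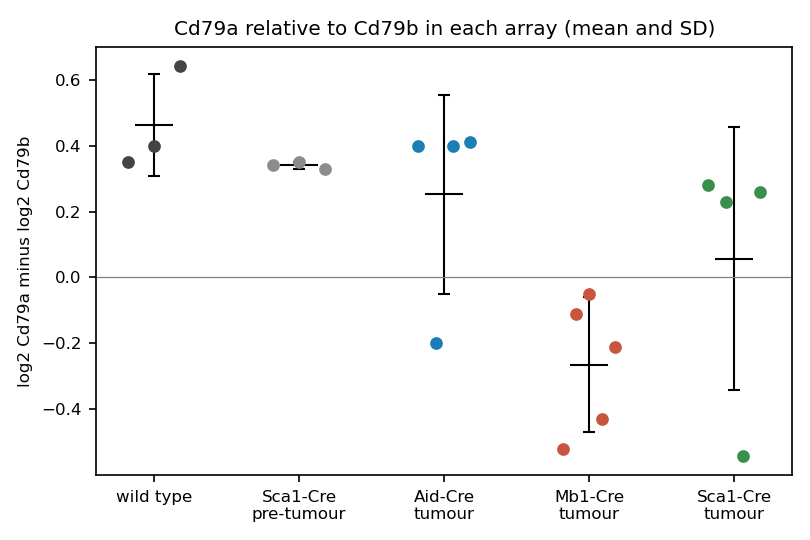
Log2 Cd79a minus log2 Cd79b in each spleen (points), by group, with the group mean (long bar) and SD (whiskers). The 5 Mb1-Cre points run from -0.52 to -0.05, below the 3 wild-type points at 0.35 to 0.64. The Sca1-Cre tumour points, from -0.54 to 0.28, also lie below wild type, and the lowest Aid-Cre point is at -0.20.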

How the data were processed

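Biotin-labelled total RNA of 19 whole spleens was hybridised to arrays, with 1 array per mouse. Per the submitters' processing notes, the authors summarised the probes by RMA with the R package oligo. Its version is not given in the sources used here. Each probe set had 1 value, deposited by the authors on a log2 scale, with array medians from 5.23 to 5.40, and no further normalization was applied. Groups came from the titles. Of 41345 probe sets, 23521 carried 1 gene symbol, and the brightest of each symbol left 22180 genes. The 17824 probe sets with several symbols or none were left out.

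limma 3.58.1 in R 4.3.3 fitted 5 group means over all 19 arrays, with Benjamini-Hochberg adjustment over 22180 genes. The fit was tested on simulated data. Lists were described by counts and medians. The members, lists and tests were chosen with earlier results of these data known. Named in addition to the 5 lineage genes were up to 8 members by smallest unadjusted p for all tumours, up to 4 elsewhere, and members against the median's sign. The number of arrays limits the precision. Alternatives were quantile or median normalization, a filter on dim genes, the mean of probe sets, only the compared groups, a variance trend, a sex covariate, the replicate number as a block, and arrays left out. The sex covariate was a score from the same arrays, the mean of Kdm5d, Uty and Eif2s3y minus Xist. Promoters are RefSeq's. Figures used matplotlib 3.10.9 in Python 3.11.15.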

Additional observations from a re-analysis of the deposited data

Results flagged for a closer look

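In 126 checks of a member within a tumour group, 4 had a lowest array unusually far from the rest by the gap between it and its neighbour relative to the group's range (Dixon's test at 5%). Chance alone marks about 1 in 20 such groups. In Sca1-Cre tumour replicate 3, Spib read 7.77 (next array 9.37), Bach2 read 6.67 (next 8.35) and Blnk read 8.76 (next 10.01). In Mb1-Cre tumour replicate 4, Fcgr2b read 9.68 (next 10.29).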

How the results depend on the processing

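limma called 0 members in each of 9 comparisons and in the F-test, as deposited and under all 28 alternatives. With 1 array left out, the members' median ran from -0.74 to -0.49 for all tumours, -1.02 to -0.15 for Aid-Cre, -0.86 to -0.57 for Mb1-Cre, -0.46 to -0.10 for Sca1-Cre tumours and 0.00 to 0.21 for pre-tumour spleens against wild type. It ran from -0.67 to -0.24 for Sca1-Cre tumour against pre-tumour, -0.20 to 0.56 for Aid-Cre against Mb1-Cre, -0.54 to 0.24 for Aid-Cre against Sca1-Cre and -0.59 to -0.11 for Mb1-Cre against Sca1-Cre. The sign thus turned in both comparisons of Aid-Cre with another line. The pre-tumour median moved from 0.10 to 0.31 with the sex covariate; the cause was not tested. With the replicate number as a block, 0 members and at most 2 of 22180 genes were called in each comparison. The numbers did not pair the arrays: deviations of 33 same-numbered pairs correlated at a median of -0.05, and 8 pairs exceeded 0.1.

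Small differences changed sign, and the cause was not tested. With quantile normalization, Sca1-Cre tumours against wild type gave -0.03 for Vav1, -0.01 for Pik3ap1, 0.00 for Dapp1 and -0.03 for Swap70. Without both arrays with pancreatic transcripts, Cd24a gave -0.02 in Aid-Cre tumours. With 1 array left out, Bcl10 ran from -0.08 to 0.10 over all tumours and Cd24a from -0.15 to 0.31 in Aid-Cre tumours. In Sca1-Cre tumours the range was -0.01 to 0.19 for Cd81, -0.12 to 0.29 for Fcgr2b, -0.01 to 0.13 for Vav1, -0.09 to 0.18 for Pik3ap1, -0.12 to 0.22 for Dapp1 and -0.10 to 0.23 for Swap70.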
